A study of Mus musculus with 24 samples.

Results

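A set of 9 genes of the immediate early response was followed across the QuantSeq libraries of the study, namely the AP-1 genes *Fos*, *Fosb*, *Jun*, *Junb* and *Jund* and the genes *Egr1*, *Ier2*, *Dusp1* and *Klf6*. They are 9 of the 55487 genes in the deposited values, taken by symbol in both experiments. The members were chosen on earlier measured values of these libraries, with the sgMed12 LPs in view, so the comparison of sgMed12 with sgControl is described here and not tested. The sgCbfb and sgCTCF comparisons of experiment 2 use the same sgControl libraries as that comparison and are therefore not independent of the choice. Experiment 1 has libraries of its own. Which values chose the members is not recorded, so the tests of experiment 1 are not known to be independent of the choice either.

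AP-1 is a dimer of a JUN protein with a FOS protein or with another JUN protein, and it binds short palindromic DNA sites in enhancers. Growth factor, cytokine and stress signals act through MAP kinases to start transcription of *Fos*, *Jun*, *Egr1* and *Ier2* within minutes without new protein synthesis. Serum response factor takes part at some of these genes, and the mRNAs decay quickly. *Jund* is less inducible than the other members of its family. In blood progenitors AP-1 and EGR1 are known for roles in myeloid differentiation and in the response to cytokine and antigen receptors.

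All cells were Cas9-LPs, lymphoid progenitor (LP) cell lines made from fetal liver of mice that lack *Ebf1* and carry Cas9 knocked in at Rosa26, so the controls share both changes. They were grown with SCF, Flt3L and IL-7 on OP9 stroma, transduced with an sgRNA retrovirus carrying the surface marker hNGFR, and sorted as hNGFR+CD45+ cells 5 days after transduction. Experiment 1 compared sgControl and sgCbfb in LPs and in Phase 1 cells, and experiment 2 compared sgControl, sgCbfb, sgCTCF and sgMed12 in LPs. Phase 1 cells are LPs stimulated after transduction with the Notch ligand DLL4 on OP9-DLL4 stroma, while LPs stayed on OP9 without ligand. Feeder line and ligand therefore differ together between the stages. Each of the 8 groups has 3 libraries, 24 in all. sgControl targets luciferase, which these cells do not have. *Cbfb* encodes the partner that RUNX factors need to bind DNA, *Ctcf* encodes the chromatin architecture factor CTCF, and *Med12* encodes a subunit of the kinase module of Mediator. The methods of the study call the replicates biologically independent, and the sources used here do not say whether they were separate cultures or separate lines, so P values measure the spread between these libraries. The libraries are bulk RNA of sorted pools of transduced cells, in which fewer cells of a type and less RNA per cell cannot be told apart.

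Levels are given in CPM, the reads of a gene scaled to the same total of reads on genes in every library. QuantSeq counts the 3′ ends of mRNAs whatever their length. Libraries of experiment 1 held 1363263 to 1743319 reads on genes and those of experiment 2 held 3354483 to 4326782, and the level that 0 reads cannot exclude, which covers counting error alone, was 1.72 to 2.20 CPM in the first and 0.693 to 0.894 CPM in the second. *Cbfb* mRNA fell in LPs with sgCbfb, from 86.5 ± 9.30 to 40.2 ± 5.18 CPM (SD, n = 3) in experiment 1 and from 114 ± 8.37 to 48.4 ± 6.93 CPM in experiment 2. The Phase 1 levels were 66.5 ± 19.2 CPM (sgControl) and 53.9 ± 9.69 CPM (sgCbfb). *Ctcf* was 391 ± 30.7 CPM with sgControl and 306 ± 30 CPM with sgCTCF. *Med12* was not lower with sgMed12, at 7.01 ± 3.38 CPM against 5.14 ± 1.26 CPM with sgControl, and reads at the 3′ end do not check an edit elsewhere in the gene. The paper checked depletion of the Cbfβ, CTCF and Med12 proteins by immunoblot in transduced Cas9-LPs. The mitochondrial share of reads was 13.7% and 11.2% in sgMed12 replicates 1 and 3 and 6.76% to 8.44% in the other libraries of experiment 2. The 10 stromal genes that mark the OP9 feeder cells summed to 0 to 7.78 CPM in experiment 1, and in experiment 2 to 0.487 to 44.4 CPM. Replicate 1 had the highest stromal sum of its group in each of the 4 groups of experiment 2.

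Upstream sequences of *Fos*, *Jun* and *Klf6* are shown because these 3 genes moved in different comparisons below. Each is the 250 bases before the RefSeq start on GRCm38.p6, with letters matching TGACG or TATAAA in *Fos*, and TGACATCA in *Jun* and *Klf6*, in capitals. The *Fos* window lies at chr12:85473640-85473889 on the plus strand, the *Jun* window at chr4:95052223-95052472 on the minus strand, and the *Klf6* window at chr13:5861239-5861488 on the plus strand.
Fos: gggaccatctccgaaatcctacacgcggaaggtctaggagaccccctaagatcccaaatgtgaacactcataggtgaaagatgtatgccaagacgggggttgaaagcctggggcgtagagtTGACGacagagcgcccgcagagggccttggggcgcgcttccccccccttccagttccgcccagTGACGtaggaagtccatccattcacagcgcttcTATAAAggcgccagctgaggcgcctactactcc
Jun: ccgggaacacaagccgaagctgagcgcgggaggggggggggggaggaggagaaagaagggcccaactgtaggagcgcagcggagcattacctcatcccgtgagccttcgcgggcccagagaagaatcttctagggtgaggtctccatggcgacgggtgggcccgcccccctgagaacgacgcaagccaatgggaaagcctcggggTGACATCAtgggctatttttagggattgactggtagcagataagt
Klf6: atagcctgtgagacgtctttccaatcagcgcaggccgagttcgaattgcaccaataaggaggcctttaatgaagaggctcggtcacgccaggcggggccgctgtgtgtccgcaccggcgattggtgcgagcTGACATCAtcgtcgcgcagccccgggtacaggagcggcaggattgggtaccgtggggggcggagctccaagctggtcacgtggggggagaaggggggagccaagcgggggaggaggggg
Motifs were counted on either strand in 7 members, without *Egr1* and *Ier2*, and in 32851 RefSeq promoter windows of that length. TGACG, the core of the cyclic AMP response element, occurred in 4 of the 7 and in 17.8% of windows. TGACATCA, a variant of the AP-1 site, occurred in *Jun* and *Klf6* and in 2.93% of windows, and it does not contain TGACG. In *Jun* it started 45 bases before the start, and in *Klf6* 119 bases before it. The consensus AP-1 site TGANTCA occurred in none of the 7 and in 6.75% of windows, and the CArG box of serum response factor likewise in none of the 7 and in 1.47% of windows. Sites outside the 250 bases were not searched, so these genes may hold such sites elsewhere. As *Egr1* and *Ier2* were not counted, the numbers say nothing about sites in these members, the CArG box included. The pattern TGNGGT, where N is any base, occurred in 3 of the 7, *Dusp1*, *Jun* and *Jund*, and in 40.1% of windows. It is wider than the core of the RUNX site, TGYGGT, where Y is C or T. The *Jun* matches read TGAGGT, which is not that core. The core itself was not counted, so nothing is read from these numbers about RUNX sites. The RefSeq start of *Jund* lies 1210 bases from its GENCODE start, so its window is not shown.

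By GENCODE M21 on GRCm38, *Fos* (ENSMUSG00000021250) spans bases 85473890 to 85477273 of chromosome 12, *Jun* (ENSMUSG00000052684) 95049034 to 95052222 of chromosome 4, *Jund* (ENSMUSG00000071076) 70698949 to 70700616 of chromosome 8 and *Klf6* (ENSMUSG00000000078) 5861482 to 5870394 of chromosome 13. Exons of 4 members overlap those of a gene on the other strand. The overlap holds the last base of the gene, where QuantSeq reads fall, only for *Junb*, which shares 173 bases with *Prdx2*, a gene at 204 to 289.8 CPM in all libraries. As the strand setting of the counting is not given in the sources used here, *Junb* values are uncertain. *Gm11175*, which overlaps 877 bases of *Jund*, had at most 2 reads in a library.

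All 9 members passed the filter of 1 CPM in 3 libraries in both experiments. Their spread within groups differed, with a median coefficient of variation over the 8 groups of 10.5% for *Jund*, 11.3% for *Klf6* and 14.7% for *Ier2* against 60.8% for *Fos* and 67.6% for *Fosb*. *Fos* had 1 to 34 reads per library in experiment 1 and *Fosb* 0 to 45, so their values there rest on few reads.

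The sgMed12 LPs of experiment 2 are described first. *Fos*, the inducible FOS subunit of AP-1, was at 27.7, 26.4 and 6.24 CPM with sgMed12 and at 3.96, 3.54 and 3.65 CPM with sgControl. Every sgMed12 library was above every sgControl library, but replicate 3 was far below the other two, and the ratio of means was 5.41. *Egr1*, a zinc finger factor induced with *Fos*, was at 14.1, 7.26 and 6.81 CPM against 4.75, 2.95 and 3.41 CPM, again without overlap, with a ratio of 2.54. *Fosb*, the other inducible FOS gene measured here, was at 21.8, 11.6 and 6.81 CPM against 2.64, 7.09 and 2.68 CPM. These groups overlapped, since sgControl replicate 2 was above sgMed12 replicate 3, and the ratio was 3.24, or 5.04 without sgControl replicate 2.

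The JUN genes had smaller ratios, and their groups overlapped. *Jun* was at 79.1, 29.3 and 23.8 CPM with sgMed12 and at 20.6, 22.7 and 24.8 CPM with sgControl, a ratio of 1.94 that came from replicate 1, since it was 1.12 without replicate 1 in both groups. *Jund* was at 445, 265 and 319 CPM against 309, 324 and 265 CPM, and *Junb* at 39.8, 43.6 and 25.8 CPM against 40.6, 44.0 and 43.3 CPM, and the groups overlapped for both. For *Ier2*, a nuclear protein gene of the same response, *Dusp1*, the phosphatase that switches off MAP kinases, and *Klf6*, a zinc finger factor, the ratios of means were 0.974, 1.39 and 1.19, also with overlapping groups. Of the 9 members, 7 had a higher mean with sgMed12 (8 with median-of-ratios scaling, where *Ier2* turned), 3 a ratio over 2 and 2 no overlap. The share of all genes with a ratio over 2 or without overlap was not computed, so nothing is read from these counts. The median limma log2 fold change of the members was 0.40 beside -0.02 over all tested genes. Nothing is read from this gap either, as the members were chosen with this comparison in view. In this comparison 1.03% of 13177 tested genes were called by the rule given below, and nothing is read from it for members chosen on it.

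On the log2(CPM + 1) scale, replicate 1 stood above the mean of the sgMed12 group for 9 of 9 members and replicate 3 for 0 of 9. The order by replicate number was much the same in the other groups transduced with a targeting sgRNA in experiment 2, where replicate 1 was above its group mean for 8 members with sgCTCF and 7 with sgCbfb, and replicate 3 for 0 and 1. With sgControl the numbers were 5 members in replicate 1 and 2 in replicate 3. *Fos* was highest in replicate 1 in all 4 groups, and *Ier2* was highest in replicate 1 and lowest in replicate 3 in all 4. The sgMed12 replicate 1 had the highest stromal sum of the experiment, 44.4 CPM, against 6.10 CPM in replicate 2 and 20.4 CPM in replicate 3, and *Col3a1*, *Dcn* and *Postn* were at 0 reads in it. The sums of sgControl replicates 1, 2 and 3 were 30.3, 3.84 and 0.487 CPM. Without replicate 1 in all 4 groups the ratio was 4.54 for *Fos*, 2.21 for *Egr1* and 1.89 for *Fosb*. The part of stromal RNA and of the mitochondrial share in these values was not tested.

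**Figure D1:**
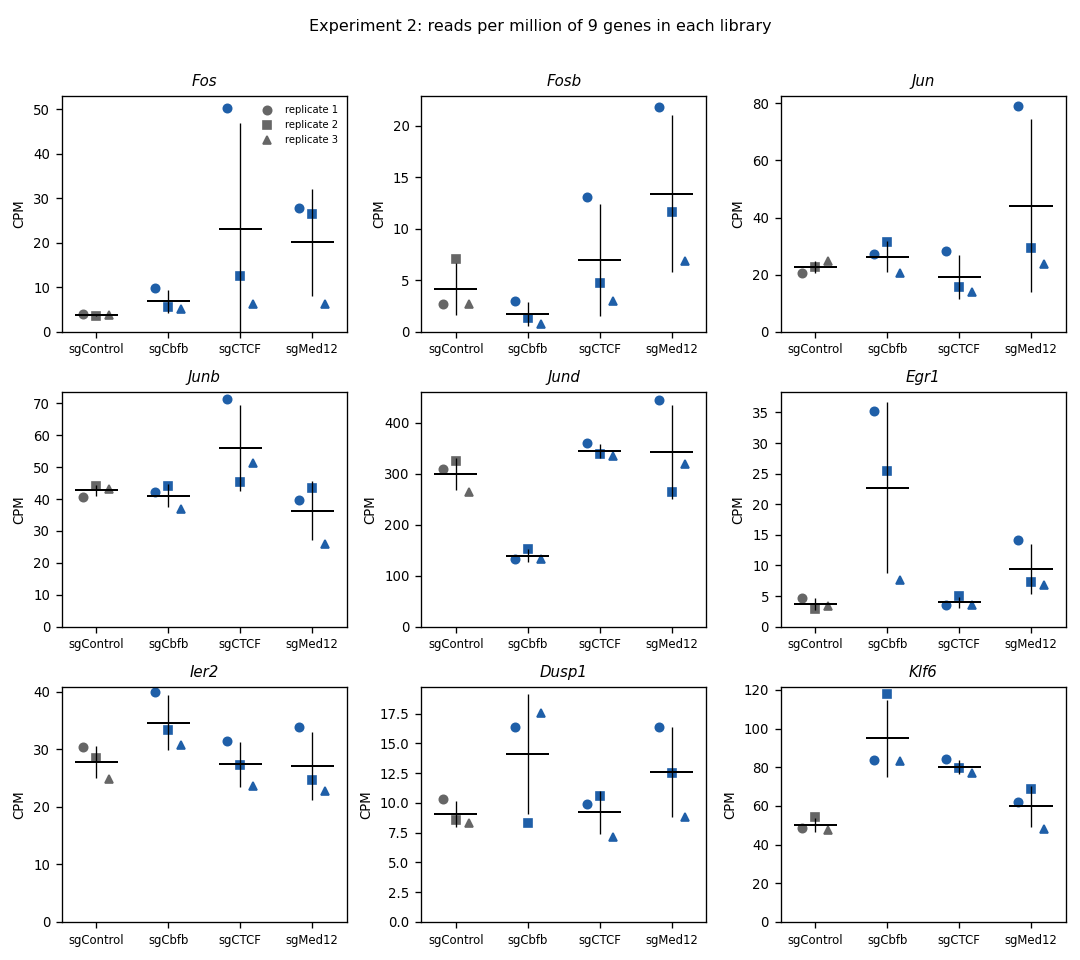
CPM of each of the 9 genes (vertical axes, from 0) in the 12 LP libraries of experiment 2, by sgRNA. Points are libraries, with a shape for each replicate number, horizontal lines are means and vertical lines are ± 1 SD, ended at 0; *Fos* with sgCTCF ran from 6.24 to 50.4 CPM, and *Jund* with sgCbfb lay at 132 to 153 CPM, below every other library.

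**Figure D2:**
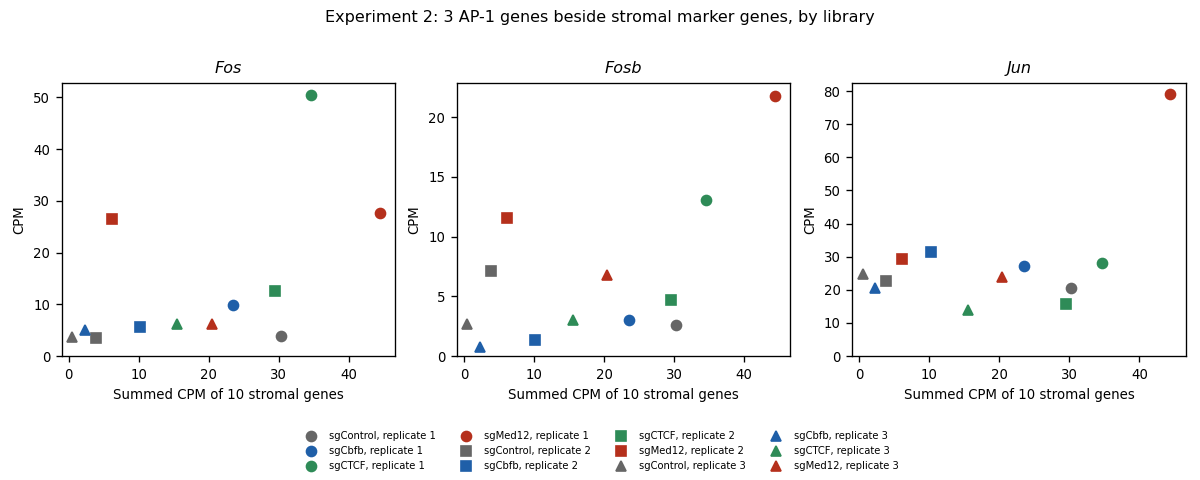
CPM of *Fos*, *Fosb* and *Jun* (vertical axes) against the summed CPM of 10 stromal genes (horizontal axes) in the 12 libraries of experiment 2, with colour for the sgRNA and shape for the replicate number. In each group the highest stromal sum and the highest *Fos* were those of replicate 1, at 44.4 and 27.7 CPM with sgMed12, 34.6 and 50.4 CPM with sgCTCF, 23.5 and 9.84 CPM with sgCbfb and 30.3 and 3.96 CPM with sgControl, and sgMed12 replicate 2 lay at 6.10 and 26.4 CPM.

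The other comparisons were tested with limma on log2(CPM + 1) over all genes of an experiment, with Benjamini-Hochberg adjustment. A called gene passed 3 thresholds: an adjusted P value below 0.05, group means that differed by more than 1 on the log2 scale, and more than 10 CPM on average in at least 1 group. Fold changes on this scale understate the change of low genes. An exact permutation test of 3 libraries against 3 cannot give a two-sided P value under 0.1.

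With sgCTCF, 1 of 9 members was called, where 2.43% of 13177 tested genes were. *Fos* was at 50.4, 12.5 and 6.24 CPM with sgCTCF, a mean of 23.1 ± 23.9 CPM (SD, n = 3) against 3.72 ± 0.214 CPM with sgControl. All 3 libraries were above the controls, and replicate 1 was 8.08-fold above replicate 3. The limma log2 fold change was 1.86 (standard error 0.50, Benjamini-Hochberg adjusted P = 0.015). It was 1.07 without sgCTCF replicate 1 (limma, Benjamini-Hochberg adjusted P = 0.19), and the call was also lost without sgControl replicate 3 (limma, adjusted P = 0.054). Stromal genes summed to 15.5 to 34.6 CPM in these libraries, and replicate 1 had the highest sum. *Fosb* was at 13.1, 4.73 and 3.00 CPM, which overlapped the controls (limma, Benjamini-Hochberg adjusted P = 0.55).

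*Klf6* was at 84.0, 79.4 and 77.0 CPM with sgCTCF and at 48.5, 54.0 and 47.7 CPM with sgControl, 1.60-fold higher without overlap. This rise passed the adjusted P value and not the fold threshold (limma log2 fold change 0.67, standard error 0.15, Benjamini-Hochberg adjusted P = 0.0033). Without replicate 1 in all 4 groups the log2 fold change was 0.61 (limma, Benjamini-Hochberg adjusted P = 0.051). *Egr1* was at 3.49, 5.01 and 3.47 CPM with sgCTCF, within the range of the controls but for replicate 2 (limma, Benjamini-Hochberg adjusted P = 0.93). *Jund*, at 335 to 361 CPM, lay just above the 265 to 324 CPM of the controls (limma, Benjamini-Hochberg adjusted P = 0.38).

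With sgCbfb in LPs of experiment 2, 2 of 9 members were called, where 4.33% of tested genes were. *Jund* fell, from 309, 324 and 265 CPM with sgControl to 132, 153 and 132 CPM with sgCbfb. The groups were far apart, each sgCbfb library holding 443 to 572 *Jund* reads, and the limma log2 fold change was -1.10 (standard error 0.13, Benjamini-Hochberg adjusted P = 9.6e-07). *Egr1* rose, from 4.75, 2.95 and 3.41 CPM to 35.2, 25.5 and 7.56 CPM. Its 3 sgCbfb libraries were all above the controls, with replicate 3 much lower than the others, and the log2 fold change was 2.12 (standard error 0.39, limma, Benjamini-Hochberg adjusted P = 0.00031). Both calls were made under each of the 22 alternatives run.

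*Klf6* rose with sgCbfb in LPs of both experiments by less than the fold threshold. In experiment 2 it was at 83.8, 118 and 83.4 CPM with sgCbfb, 1.90-fold above sgControl without overlap (limma log2 fold change 0.89, standard error 0.15, Benjamini-Hochberg adjusted P = 7.4e-05). In LPs of experiment 1 it was at 147, 128 and 158 CPM with sgCbfb and at 75.0, 93.5 and 73.2 CPM with sgControl, 1.80-fold higher and again without overlap (limma log2 fold change 0.84, standard error 0.15, Benjamini-Hochberg adjusted P = 0.0019). The adjusted P value stayed under 0.05 in each alternative for both.

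In LPs of experiment 1, 0 of 9 members were called with sgCbfb, where 1.69% of 13239 tested genes were. At an unadjusted P under 0.05 limma had 2 of the 9, *Fos* and *Klf6*, and edgeR and DESeq2 called 0 of 9 by the same rule. *Jund* was at 187, 176 and 191 CPM with sgCbfb and at 193, 226 and 238 CPM with sgControl, a log2 ratio of means of -0.25 (limma log2 fold change -0.24, standard error 0.18, Benjamini-Hochberg adjusted P = 0.71). The groups were apart by the gap from 191 to 193 CPM, and the log2 ratio of means in experiment 2 was -1.11. *Egr1* was at 14.8, 17.8 and 7.14 CPM against 4.13, 7.43 and 14.1 CPM, with overlap (limma, Benjamini-Hochberg adjusted P = 0.69). Its fold change of 1.55 stands beside 6.14 in experiment 2. The difference between the 2 experiments was not tested for either gene. *Fos* was at 6.35, 4.59 and 3.57 CPM with sgCbfb and at 2.36, 1.24 and 0.642 CPM with sgControl, apart but from 1 to 4 reads per control library (limma, Benjamini-Hochberg adjusted P = 0.35).

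In Phase 1 cells, 1 of 9 members was called with sgCbfb, where 3.52% of tested genes were. *Fosb* was at 29.2, 9.43 and 4.71 CPM with sgCbfb and at 0, 3.87 and 0.733 CPM with sgControl, which are 0, 6 and 1 reads. The groups did not overlap (limma log2 fold change 2.58, standard error 0.67, Benjamini-Hochberg adjusted P = 0.022), but the call was lost without sgCbfb replicate 1 (log2 fold change 1.92, adjusted P = 0.17), without sgCbfb replicate 2 (adjusted P = 0.058) and without sgControl replicate 1 (adjusted P = 0.091). *Fos*, at 22.0, 5.03 and 8.25 CPM against 2.82, 3.22 and 8.07 CPM, was likewise highest in sgCbfb replicate 1 and was not called. *Egr1* was at 20.1, 20.7 and 15.3 CPM with sgCbfb, all above the 8.47, 10.3 and 12.5 CPM of sgControl (limma, Benjamini-Hochberg adjusted P = 0.37). *Dusp1* was likewise apart, at 27.7 to 33.3 CPM against 10.3 to 22.7 CPM (limma, Benjamini-Hochberg adjusted P = 0.20). So was *Klf6*, at 134 to 141 CPM against 91.7 to 116 CPM (limma log2 fold change 0.42, standard error 0.15, Benjamini-Hochberg adjusted P = 0.13). *Jund* was at 119 ± 15.9 CPM with sgCbfb and 114 ± 36.6 CPM with sgControl (SD, n = 3). The stromal sum in these sgCbfb libraries was 2.36 to 7.78 CPM, from 4 to 12 reads, and highest in replicate 1.

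The sgCbfb effect was compared between LPs and Phase 1 cells by the interaction term of the same fit, without a fold threshold. No member was called, 0 of 9, where 1.19% of tested genes were. At an unadjusted P under 0.05 limma had 1 of the 9, *Dusp1* (log2 difference 1.24, standard error 0.58, Benjamini-Hochberg adjusted P = 0.47), and edgeR and DESeq2 also called 0.

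Notch stimulation was followed by comparing Phase 1 cells with LPs. With sgControl 1 of 9 members was called, where 3.39% of tested genes were. *Jun* rose from 18.9, 13 and 10.3 CPM in LPs to 26.1, 53.5 and 47.7 CPM in Phase 1 cells, without overlap (limma log2 fold change 1.51, standard error 0.40, Benjamini-Hochberg adjusted P = 0.023). In limma fits that left out 1 library the call was lost without LP replicate 2 (adjusted P = 0.079), LP replicate 3 (adjusted P = 0.10) or Phase 1 replicate 2 (adjusted P = 0.088). *Jund* moved the other way, from 193, 226 and 238 CPM to 81.9, 107 and 154 CPM, a log2 ratio of means of -0.94. This fall passed the adjusted P value in all alternatives and just missed the fold threshold (limma log2 fold change -0.97, standard error 0.18, Benjamini-Hochberg adjusted P = 0.0011). With sgCbfb, 1 of 9 members was called between the stages, where also 1.19% of tested genes were. *Dusp1* rose from 7.76, 10.9 and 9.28 CPM to 29.2, 33.3 and 27.7 CPM (limma log2 fold change 1.60, standard error 0.41, Benjamini-Hochberg adjusted P = 0.041), and its call was lost without any single library of either group (adjusted P 0.078 to 0.18). *Jun* and *Jund* went in the same directions as with sgControl, from 15.9 to 37.9 CPM and from 185 to 119 CPM, and neither passed (Benjamini-Hochberg adjusted P = 0.095 for *Jun* and 0.073 for *Jund* by limma). The 2 stage comparisons have no libraries in common.

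**Figure D3:**
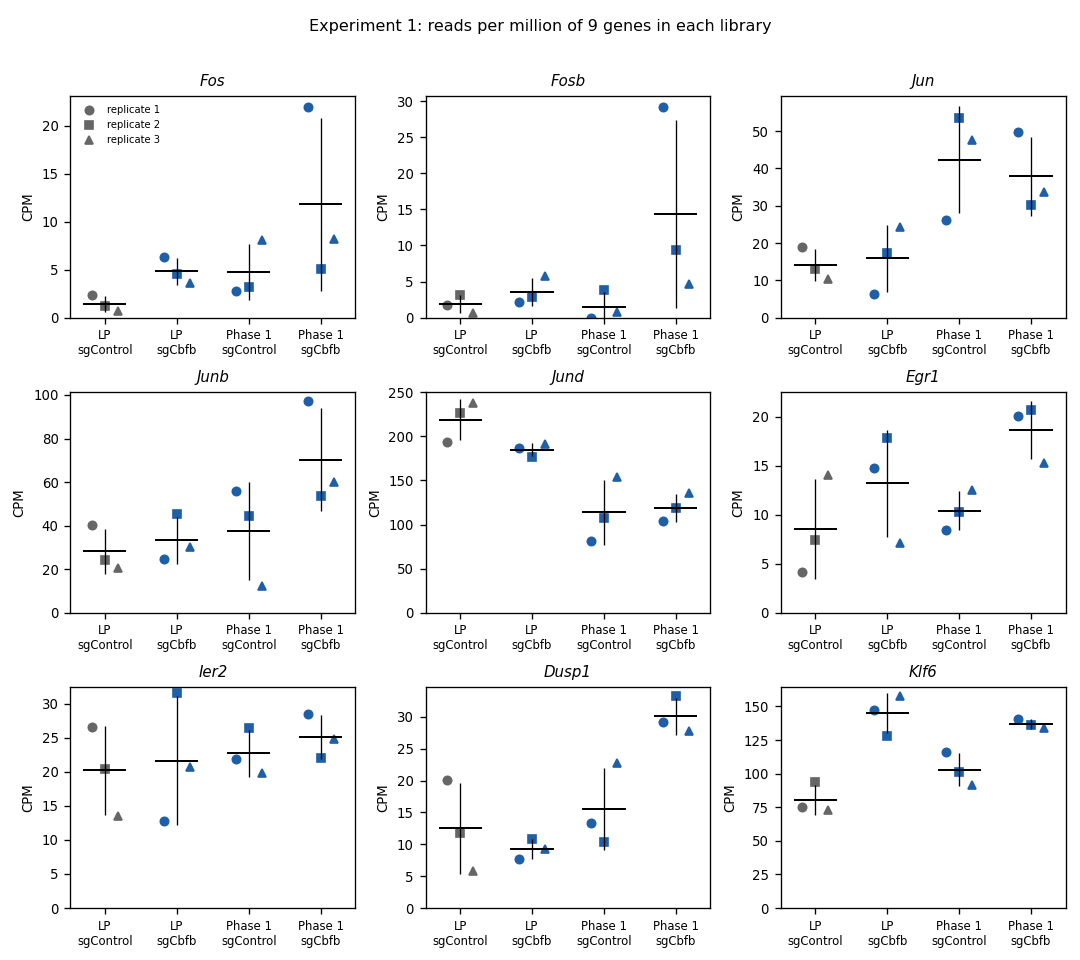
CPM of each of the 9 genes (vertical axes, from 0) in the 12 libraries of experiment 1, for LPs and Phase 1 cells with sgControl or sgCbfb. Points are libraries, horizontal lines are means and vertical lines are ± 1 SD, ended at 0; *Jun* was at 14.1 and 15.9 CPM in the LP groups and at 42.4 and 37.9 CPM in the Phase 1 groups, and *Jund* at 219 and 185 CPM against 114 and 119 CPM.

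**Figure D4:**
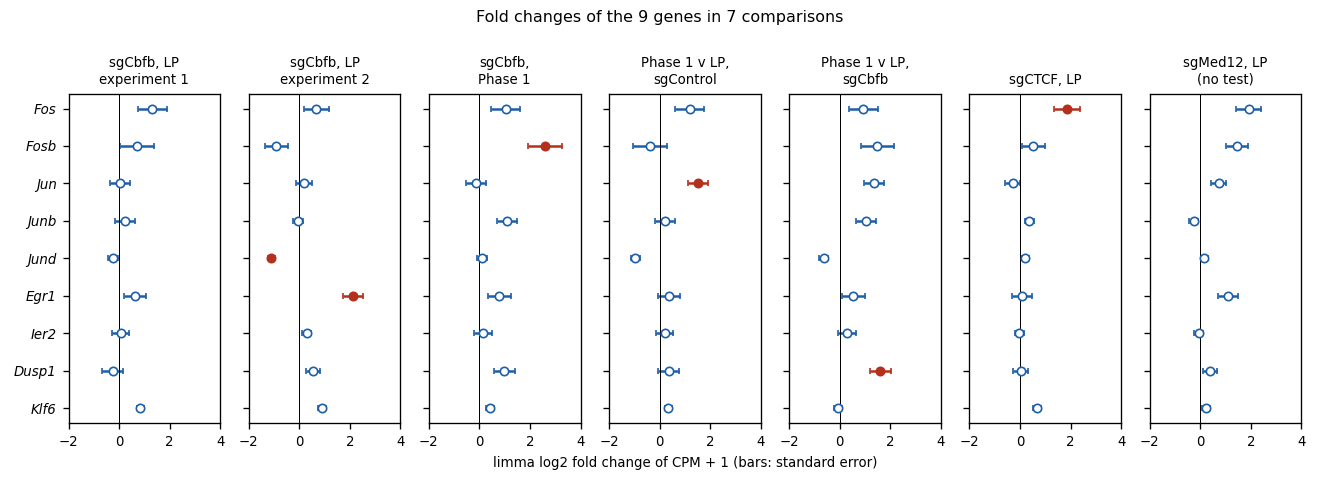
limma log2 fold changes of CPM + 1 with their standard errors (horizontal axes) for the 9 genes in 7 comparisons, with filled red points for the members called. The called points are *Fosb* at 2.58, *Jun* at 1.51, *Dusp1* at 1.60, *Jund* at -1.10, *Egr1* at 2.12 and *Fos* at 1.86, and the sgMed12 panel carries no test.

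Ordered by level within an experiment, *Fos* was lowest in sgControl LPs both times, and in both the next group up did not overlap it. In experiment 2 the mean levels of *Fos* fell from sgCTCF to sgMed12, sgCbfb and sgControl, with overlap of all neighbours but the last pair. *Egr1* was ordered sgCbfb, sgMed12, sgCTCF and sgControl, and the one gap between neighbours without overlap lay between sgMed12 and sgCTCF. For *Jund* the gap lay below sgControl, with sgCbfb alone at the bottom. In experiment 1 *Jun* had its gap between the Phase 1 and the LP groups, and *Klf6* had it between the sgCbfb and the sgControl groups. *Ier2* lay between 20.2 and 25.1 CPM in the group means of experiment 1, with overlap of every neighbour.

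The genes most like *Fos*, *Jun* and *Egr1* were sought among 8622 genes by the root mean square difference of 6 log2 ratios of group means (CPM + 1) to the LP sgControl of the same experiment. *Rgs1*, a regulator of G protein signalling, was nearest to *Fos* at 0.44, followed by *Cfp* at 0.52 and *Gm44292* at 0.74. *Gm43484*, *Snord49b* and *Alad* were nearest to *Jun*, at 0.28, 0.29 and 0.32. *Ifi27*, *Irgm1* and *Fchsd2* were nearest to *Egr1*, at 0.45, 0.47 and 0.48, and the first 2 are interferon-stimulated genes. *Rgs1* had a log2 ratio of 1.89 with sgCTCF and 1.70 with sgMed12, where *Fos* had 2.35 and 2.16. *Ifi27* had one of 2.30 with sgCbfb in experiment 2, where *Egr1* had 2.34. With sgMed12 *Ifi27* had 0.26 and *Egr1* 1.15, and with sgCbfb in experiment 2 *Rgs1* had -0.05 and *Fos* 0.73. As the genes were picked on these ratios, their likeness in them is built in.

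Of 38 other immediate early genes 32 were tested in each experiment. With sgCbfb, 3 rose and 0 fell in LPs of experiment 1 (1.69% of all tested genes called), 4 rose and 2 fell in LPs of experiment 2 (4.33% of all), and 5 rose and 2 fell in Phase 1 cells (3.52% of all). *Nfkbia*, the inhibitor of NF-κB, and *Dusp2*, a nuclear MAP kinase phosphatase, rose in all 3, *Nfkbia* from 426 ± 35.3 to 1359 ± 76.9 CPM and *Dusp2* from 112 ± 7.96 to 311 ± 35.7 CPM (SD, n = 3) in experiment 2. *Rhob*, a small GTPase induced early by growth factors, also rose in all 3, from 32.2 ± 1.89 to 113 ± 3.95 CPM in experiment 2. *Gadd45b* fell there from 22.9 ± 4.49 to 7.22 ± 1.5 CPM. In Phase 1 cells *Nr4a2*, an orphan nuclear receptor gene, rose from 2.33 ± 3.5 to 11.5 ± 6.89 CPM and *Ier3* fell from 66.2 ± 4.82 to 23.1 ± 3.77 CPM. With sgCTCF 2 rose and 1 fell (2.43% of all tested genes called), namely *Gadd45g* from 2.55 ± 0.32 to 12.4 ± 2.57 CPM, *Cd69* from 62.5 ± 14.8 to 134 ± 26.9 CPM and *Myc* from 36.8 ± 5.08 to 15.7 ± 5.81 CPM. With sgMed12, limma called 0 of the 32 (1.03% of all tested genes called), with 10 at an unadjusted P under 0.05, and edgeR and DESeq2 called 1 each. Their median limma log2 fold change there was 0.09, beside -0.02 over all tested genes. Between the stages, 1 rose and 5 fell with sgControl (3.39% of all tested genes called), *Klf4* rising from 18.0 ± 7.14 to 57 ± 18.1 CPM and *Rhob* falling from 21.6 ± 8.41 to 5.34 ± 4.53 CPM, and 2 rose and 1 fell with sgCbfb (1.19% of all), *Nr4a1* rising from 3.14 ± 1.75 to 16.8 ± 1.45 CPM. In the interaction, where also 1.19% of all genes were called, 2 were higher and 1 lower, *Zfp36l1*, *Ier5* and *Zfp36l2*, with limma log2 differences of 1.41, 1.34 and -1.22.

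Of 22 upstream kinases and factors, *Elk3*, a partner of serum response factor, rose with sgCbfb in all 3 comparisons and from 46.1 ± 1.33 to 169 ± 6.93 CPM in experiment 2. *Mapk3*, the gene of the MAP kinase ERK1, rose in Phase 1 cells from 53.5 ± 16.0 to 118 ± 17.4 CPM, and limma, edgeR and DESeq2 called 0 of the 22 with sgCTCF, with sgMed12 or between the stages, where limma had 2 to 6 at an unadjusted P under 0.05. Of 10 or 11 feedback inhibitors tested, *Dusp6*, a phosphatase for ERK, rose with sgCbfb in Phase 1 cells from 31.0 ± 17.1 to 117 ± 8.21 CPM, and from 21.1 ± 13 CPM in LPs to that level between the stages with sgCbfb. *Dusp5* rose between the stages with sgControl from 63.0 ± 6.37 to 145 ± 23.2 CPM. Of 6 or 7 other AP-1 and partner genes tested, 1 was called, *Mafk*, which fell with sgCbfb in experiment 2 from 38.7 ± 10.6 to 17.6 ± 1.03 CPM. Heat shock genes, a sign of cell stress, gave 0 calls by limma, edgeR or DESeq2 among the 9 or 10 tested in any comparison, with 0 to 3 at an unadjusted P under 0.05 by limma, and their sum lay between 6692 and 8792 CPM in all libraries.

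Markers of other cells moved with some of these results. The 10 myeloid genes summed to 718 to 813 CPM with sgCbfb and 63.0 to 68.9 CPM with sgControl in experiment 2, to 488 to 582 against 58.4 to 89.7 CPM in LPs of experiment 1, and to 356 to 386 against 45.2 to 55.0 CPM in Phase 1 cells. With sgCTCF the sum was 92.4 to 125 CPM and with sgMed12 80.8 to 97.2 CPM. The sgCTCF sum hides opposite moves, since the median limma log2 fold change of the 7 tested myeloid genes was -0.67. The 1 gene called there was *Fcgr3*, which rose from 38.0 ± 5.48 to 80.9 ± 18.2 CPM. *Mrc1* and *F13a1* carried most of the sgCbfb sum, at 472 ± 32.2 and 194 ± 31.7 CPM (SD, n = 3) in experiment 2. Their part in the higher *Egr1* and *Klf6* and the lower *Jund* with sgCbfb was not tested. Among 8 lymphoid progenitor genes, *Dntt*, *Rag1*, *Rag2* and *Cd44* rose and *Ly6d* fell with sgCbfb in LPs of both experiments, *Ly6d* from 109.9 ± 30 to 1.42 ± 1.37 CPM in experiment 2. With sgMed12 the 8 genes summed to 822 to 1069 CPM, below the 1194 to 1413 CPM of sgControl. *Dntt*, the terminal transferase of early lymphoid cells, fell there from 30.6 ± 7.58 to 10.1 ± 0.938 CPM and *Ly6d* from 109.9 ± 30 to 52.3 ± 7.70 CPM, and all 8 genes were detected in every library.

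The 8 genes that mark Notch-stimulated early T cells also moved. In Phase 1 cells they summed to 323 to 349 CPM with sgCbfb and 841 to 1016 CPM with sgControl, and 4 of the 8 fell, *Cd3g*, *Tcf7*, *Gata3* and *Il2ra*, *Tcf7* from 148 ± 36.0 to 12.7 ± 4.47 CPM. In LPs of experiment 2, where 6 of the 8 were tested, the sum was 25.3 to 31.9 CPM with sgControl and 41.1 to 77.0 CPM with sgCbfb. It was 61.3 to 62.9 CPM with sgCTCF and 42.7 to 55.4 CPM with sgMed12. With sgCbfb the 1 gene called there was *Il2ra*, which rose from 0.845 ± 0.734 to 22.5 ± 11.7 CPM. *Il2ra* was also the 1 called with sgCbfb in LPs of experiment 1, from 2.61 ± 2.04 to 20.2 ± 4.78 CPM. *Hes1*, a direct target of Notch, rose from 2.35 ± 0.782 CPM to 15.2 ± 5.92 CPM with sgCTCF and to 15.7 ± 6.55 CPM with sgMed12, and *Tcf7* rose with sgCTCF from 2.54 ± 0.796 to 18.0 ± 3.43 CPM. The part of these genes and of the lymphoid progenitor genes in the *Fosb* values of Phase 1 cells, in the *Fos* values with sgCTCF and in the values with sgMed12 was not tested. *Il2ra*, *Dtx1* and *Hes1* rose from 2.61, 0.393 and 1.63 CPM in sgControl LPs to 371, 114 and 85.9 CPM in Phase 1 cells, as the labels of the stages say.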

How the data were processed

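The 24 QuantSeq libraries are those of both experiments, all grouped by their labels. After trimming with fastp and mapping with STAR to mm10, the authors deposited CPM, 1 value per gene and library, under the name TPM. Counter, annotation and strand setting are not given in the sources used here. To within 0.0015 CPM, values were whole multiples of 1 step per library for 100.0% of genes, and no value was over 0.068 of a read from a whole number, so reads were recovered from them. The 9 members and the gene lists were chosen with earlier results of these data known. Genes that reached 1 CPM in 3 or more libraries of an experiment were fitted with limma 3.58.1 (R 4.3.3, moderated along a trend) on log2(CPM + 1), 4 groups in one fit, over 13239 genes in experiment 1 and 13177 in experiment 2. Alternatives were pseudocounts of 0.1 and 5, no filter, median-of-ratios scaling, edgeR 4.0.16 and DESeq2 1.42.0 on the recovered reads, the replicate number as a block, no fold threshold and each library left out. Leaving *CT010467.1* and mitochondrial genes out of the total, and replicate 1 out of all 4 groups of experiment 2, were chosen after seeing the data. The fit was tested on simulated data. Text names all members, the targeted genes, up to 4 called genes of a list with the largest log2 ratio in a comparison, and for *Fos*, *Jun* and *Egr1* the 3 genes of nearest pattern; genes of cell type lists were named after their values were seen. Over all tested genes, deviations of same-numbered libraries from their group means correlated at -0.01 to 0.10 in experiment 1 and -0.06 to 0.11 in experiment 2, not above 0.1 for every pair, so the numbers were not used to pair libraries, although some members and the stromal genes follow the number in experiment 2. Positions are from GENCODE M21 and upstream sequences from RefSeq (GRCm38.p6). Motifs were counted in 7 of the 9 members, without *Egr1* and *Ier2*.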

Additional observations from a re-analysis of the deposited data

How the results depend on the processing

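No member was called in the interaction in any alternative, and *Jund* and *Egr1* were called with sgCbfb in experiment 2 in each, with 2 to 3 members called there when 1 library was left out. Without the fold threshold the members called were 1 with sgCbfb in LPs of experiment 1 (*Klf6*), 2 between the stages with sgControl (*Jun*, *Jund*) and 2 with sgCTCF (*Fos*, *Klf6*). With a pseudocount of 0.1 they were 0 with sgCbfb in Phase 1 cells and 0 between the stages with sgCbfb. Over all genes 387 and 135 were called there. With no filter on low values the members called were 0 in both of these comparisons and 0 with sgCTCF. Over all genes 413, 137 and 284 were called. Leaving out 1 library gave 0 to 1 with sgCbfb in Phase 1 cells, 0 to 2 between the stages with sgControl, 0 to 3 between the stages with sgCbfb and 0 to 1 with sgCTCF. Over all genes these fits called 375 to 549, 346 to 579, 120 to 223 and 278 to 352, in the same order. With sgCbfb in experiment 2 they called 517 to 574. Without replicate 1 in all 4 groups 0 members were called with sgCTCF, where 271 of all genes were. Some of these fits hold fewer libraries or test more genes, and in some the fold changes also moved. Why calls were lost was not tested. With sgMed12, 2 to 4 members had a ratio over 2 across the alternatives, against 3 in all libraries. The share over all genes was not computed. With the replicate block the counts were 1 in Phase 1 cells, 1 in each stage comparison, 2 with sgCbfb in experiment 2 and 1 with sgCTCF, as without it. Genes called with sgMed12 went from 136 to 54 with no filter, to 52 without replicate 1 in all 4 groups, and to 54 to 358 when 1 library was left out. Without the fold threshold calls over all genes rose from 570 to 1272 with sgCbfb in experiment 2, from 320 to 1084 with sgCTCF, from 136 to 822 with sgMed12, from 449 to 726 between the stages with sgControl and from 158 to 267 with sgCbfb. In experiment 1 the calls with sgCbfb rose from 224 to 333 in LPs and from 466 to 678 in Phase 1 cells. Median-of-ratios scaling moved the log2 ratios of members by at most 0.11. Low read numbers limit *Fos* and *Fosb* in experiment 1, where 2 and 5 of 12 libraries held 3 reads or fewer.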
